A study of Homo sapiens with 24 samples.

Results

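Small nucleolar RNA host genes are noncoding genes whose introns hold small nucleolar RNAs (snoRNAs). The 10 described here are SNHG1, SNHG5, SNHG6, SNHG7, SNHG8, SNHG12, SNHG15, SNHG16, GAS5 and ZFAS1, found by their symbols, 10 of 28008 genes in one count table and 10 of 60221 in the other. All 10 passed the filter on low counts in both tables. They were measured by RNA sequencing in A375, an established human melanoma line, after transfection with pcDNA3.1, a plasmid with a CAG promoter and a puromycin resistance gene. The plasmid was empty or carried SLNCR (LINC00673), a long noncoding RNA linked with melanoma invasion, either full length (FL) or without one of its triplex-forming regions (TFR), stretches predicted to bind double-stranded DNA. Batch 1 held empty vector, FL, ΔTFR1 and ΔTFR2, and batch 2 held empty vector, FL, ΔTFR4 and ΔTFR5, with 3 libraries in each of the 8 groups. RNA was taken after 48 h of selection with puromycin at 2 µg/mL in every group, empty vector included. The labels call the libraries of a group biological replicates and say no more, so the tests measure the spread between these libraries.

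A snoRNA host transcript is spliced, its introns are trimmed to snoRNAs that guide the chemical modification of ribosomal RNA, and its exons are exported. Many host transcripts begin with a 5′ terminal oligopyrimidine tract, a run of C and T at the start that ties ribosomal protein mRNAs to growth signals. Their short open reading frames are met by ribosomes and mark the spliced RNA for nonsense-mediated decay, a decay pathway that needs translation, and several of them, GAS5 and SNHG1 among them, are known to accumulate when translation is blocked. Puromycin is itself a translation inhibitor to which the plasmid gives resistance. How far cells in each group were protected was not tested.

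The windows around the annotated start sites are shown because many host transcripts are known to begin with a terminal oligopyrimidine tract. The RefSeq promoter table (GRCh38.p14) matched 8 of the 10 genes, and SNHG6 and SNHG15 were not matched. Each line runs 5′ to 3′ on the gene's strand from 40 bases before to 20 bases from the annotated start on, and capitals mark a run of at least 3 pyrimidines that begins with C at the start base itself. The window of SNHG12 lies on the minus strand (chr1:28581854-28581913), as do those of SNHG5 (chr6:85678714-85678773), SNHG7 (chr9:136728165-136728224), SNHG1 (chr11:62855866-62855925) and GAS5 (chr1:173869026-173869085). Those of ZFAS1 (chr20:49278602-49278661), SNHG8 (chr4:118278722-118278781) and SNHG16 (chr17:76557724-76557783) lie on the plus strand.
SNHG12: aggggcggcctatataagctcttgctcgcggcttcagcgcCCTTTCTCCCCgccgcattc
SNHG5: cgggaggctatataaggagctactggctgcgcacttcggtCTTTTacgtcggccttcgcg
ZFAS1: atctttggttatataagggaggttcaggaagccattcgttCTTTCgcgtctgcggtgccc
SNHG7: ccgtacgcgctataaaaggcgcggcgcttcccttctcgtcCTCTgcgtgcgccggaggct
SNHG1: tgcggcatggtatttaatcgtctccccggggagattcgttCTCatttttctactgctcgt
SNHG8: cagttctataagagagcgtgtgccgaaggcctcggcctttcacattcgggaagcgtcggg
SNHG16: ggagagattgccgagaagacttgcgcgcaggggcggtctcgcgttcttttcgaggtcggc
GAS5: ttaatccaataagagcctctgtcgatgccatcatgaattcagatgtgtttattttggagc

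The run was longest in SNHG12, with 11 pyrimidines, followed by 5 in SNHG5 and ZFAS1, 4 in SNHG7 and 3 in SNHG1. A start with C and at least 3 pyrimidines was thus found in 5 of 8 hosts (62.5%), against 7.5% of all 35116 promoters in the table, 26.3% of 19 other noncoding snoRNA hosts and 50% of 42 protein-coding genes that carry snoRNAs in their introns, many of them for ribosomal proteins. The letters TATAA, the core of a TATA box, stood on the transcribed strand in the 40 bases before the start in 5 of 8 hosts, SNHG5, SNHG7, SNHG8, SNHG12 and ZFAS1, against 4.34% of all promoters, 5.26% of the other noncoding hosts and 14.3% of the protein-coding hosts. On the other strand, where the same motif reads TTATA, the letters were found in ZFAS1 alone, overlapping the first match, against 2.23% of all promoters. For SNHG12 and ZFAS1 the start used lies inside the gene. Their annotated spans begin further upstream, at chr1:28582983 and chr20:49278178. A match or its absence describes the letters in these windows, set by the annotated start used, and not where transcription began in these cells.

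Depth and libraries bear on every value below. Totals ran from 8627449 to 10789211 counts per library in batch 1 and from 24810226 to 33063445 estimated counts in batch 2. The spread between replicates was wider in batch 2, where edgeR's common biological coefficient of variation was 0.212, against 0.050 in batch 1. Levels are given as CPM, the count per 1000000 counts of the scaled library. SLNCR stood at 18.9 to 20.8 CPM with empty vector and 165 to 240 CPM in the 9 other libraries of batch 1. These batch 1 values come from the row named LINC00673, whereas in batch 2 SLNCR was read from the row named LINC00511. The batch 2 row stood at 27.9 to 30.1 CPM with empty vector and at 728, 658 and 334 CPM in FL replicates 1, 2 and 3. It stood at 444 to 515 CPM with ΔTFR4 and at 192 to 376 CPM with ΔTFR5. FL replicates 1 and 3 of batch 2 stood apart from each other more than any other pair, with a chi-square per gene of 221 against 1.5 to 146 for the other pairs of replicates. In batch 1 the FL libraries differed from the empty vector libraries along the GC content of genes (Spearman's rho across 13583 genes -0.66 between GC content and the FL against empty vector difference), a description across genes that are not independent. In batch 2 FL replicate 1 stood apart along GC content (rho -0.52 with its deviation from the gene means, against -0.14 to 0.27 in the other 11 libraries), and rho was -0.28 for FL against empty vector, 0.32 for each deletion against FL and 0.01 and -0.01 for ΔTFR4 and ΔTFR5 against empty vector. The lineage genes MITF and SOX10 were read in both batches and PMEL, MLANA and TYR were near 0. The labels call A375 epithelial: KRT8 and KRT18 were abundant, while EPCAM and CDH1 were near 0.

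Per kilobase of transcript, the hosts spanned a wide range of levels in the empty vector libraries of batch 1. SNHG16, host of SNORD1A to SNORD1C, led with 372 ± 4.46 CPM per kb (mean ± SD, n = 3, as for all levels per kb here). SNHG1, the host of SNORD22 and SNORD25 to SNORD31, followed at 220 ± 17.6, and then came ZFAS1 at 136 ± 2.27, GAS5 at 109.9 ± 2.17 and SNHG5 at 97.0 ± 6.27 CPM per kb. SNHG8 at 75.6 ± 4.46 and SNHG6 at 74.9 ± 3.12 CPM per kb overlapped. SNHG7 at 33.7 ± 0.95, SNHG15 at 28.5 ± 2.58 and SNHG12 at 22.3 ± 1.46 CPM per kb were the lowest, and no other pair of neighbours in this order overlapped. In the empty vector libraries of batch 2 the order began with SNHG16 at 324 ± 6.0, GAS5 at 186 ± 9.09, SNHG1 at 121 ± 9.56 and ZFAS1 at 79.3 ± 4.49 CPM per kb and ended with SNHG15 at 19.9 ± 1.92. There the neighbours SNHG5 and SNHG8, SNHG8 and SNHG6, and SNHG12 and SNHG7 overlapped. The 2 tables were normalised apart and made by different counting, so levels are not compared between them.

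In batch 2, cells with ΔTFR4 held more of 5 hosts than cells with empty vector, GAS5, ZFAS1, SNHG8, SNHG15 and SNHG7, at 1.66 to 2.20 times the level. They held less SNHG12, 1.72-fold lower. The tested difference passed an adjusted p of 0.05 for these 6 of 10 hosts, where 23.9% of all 18763 genes tested did. The hosts' median log2 fold change was 0.65, against 0.02 over all genes. The libraries of ΔTFR4 lay wholly above those of empty vector for 8 hosts and wholly below for 1, as was the case for 29.2% and 27.5% of all genes.

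**Figure D1:**
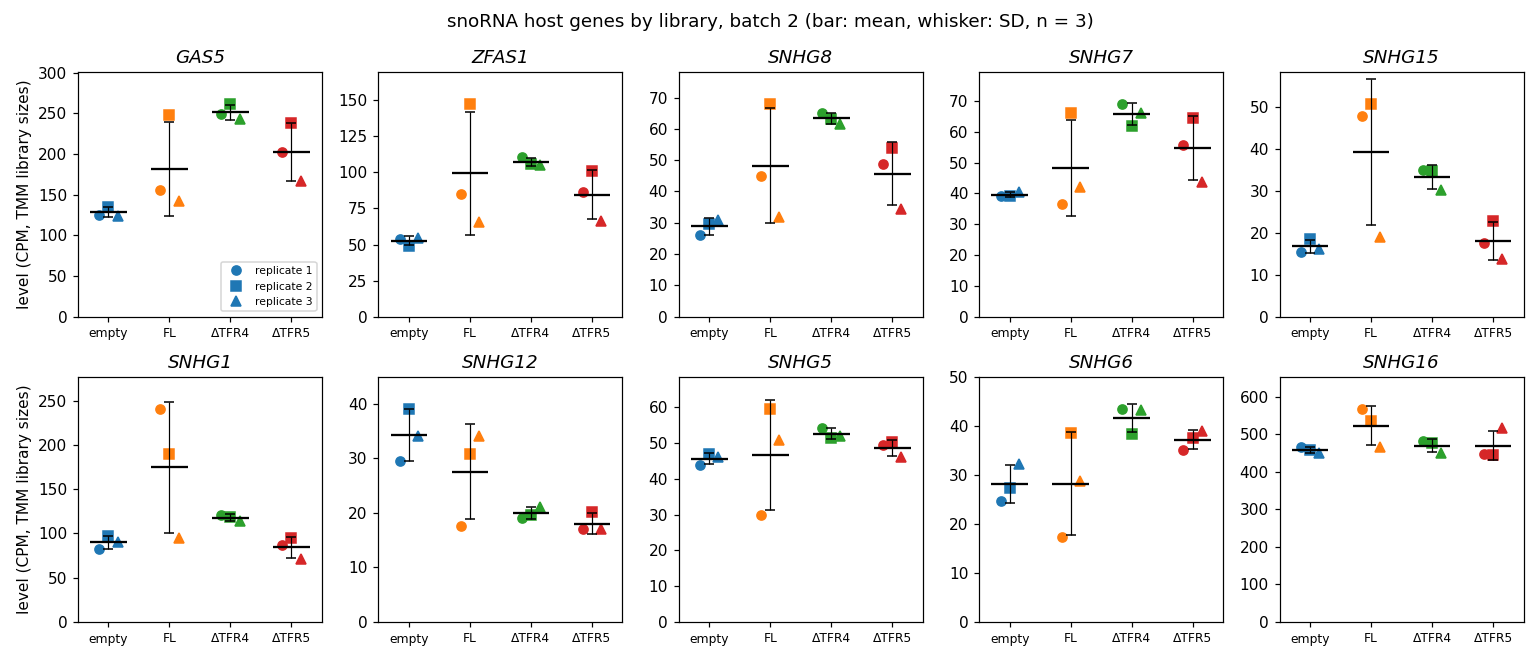
Levels of the 10 host genes in the 12 libraries of batch 2, in CPM on TMM-scaled library sizes, by group, with points for libraries, bars for means and whiskers for SDs (n = 3). GAS5, ZFAS1, SNHG8 and SNHG7 were tight in empty vector and ΔTFR4, and FL replicate 3 (triangle) lay near empty vector in SNHG1 and SNHG15.

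GAS5, a host of 10 C/D-box snoRNAs whose RNA is known to build up in growth-arrested cells, read 125, 135 and 124 CPM with empty vector and 249, 262 and 243 CPM with ΔTFR4. Its FL libraries read 155, 248 and 142 CPM, and its ΔTFR5 libraries 203, 239 and 167 CPM. Every SLNCR library thus lay above every empty vector library, and FL replicate 2 alone reached the ΔTFR4 range. The log2 fold change against empty vector was 0.97 ± 0.19 (SE) for ΔTFR4 (edgeR quasi-likelihood test, Benjamini-Hochberg adjusted p = 0.00371) and 0.66 ± 0.19 for ΔTFR5 (edgeR, adjusted p = 0.0429), while FL gave 0.50 ± 0.19 (edgeR, adjusted p = 0.124). The ΔTFR4 difference passed in all 13 alternative fits. The ΔTFR5 difference passed in 6 of 13: it missed when any one library other than ΔTFR5 replicate 3 was left out (adjusted p = 0.102 to 0.193) and when the GC trend was removed (adjusted p = 0.0655).

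ZFAS1, the antisense neighbour of ZNFX1 and the host of SNORD12, SNORD12B and SNORD12C, read 54.2, 49.3 and 54.6 CPM with empty vector and 111, 106 and 105 CPM with ΔTFR4. With FL it read 84.8, 148 and 65.4 CPM and with ΔTFR5 86.6, 101 and 66.5 CPM. No SLNCR library overlapped the empty vector libraries, and the spread in FL and ΔTFR5 was several times that in ΔTFR4. Against empty vector the log2 fold change was 1.03 ± 0.24 with ΔTFR4 (edgeR, adjusted p = 0.00878), 0.91 ± 0.24 with FL (adjusted p = 0.0657) and 0.68 ± 0.24 with ΔTFR5 (adjusted p = 0.0847).

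SNHG8, a short host with SNORA24 in its intron, read 26.0, 29.5 and 31.0 CPM with empty vector and 65.2, 63.3 and 61.7 CPM with ΔTFR4. FL libraries read 45.0, 68.0 and 31.7 CPM and ΔTFR5 libraries 48.9, 53.9 and 34.3 CPM, again all above empty vector. Its log2 fold change was 1.14 ± 0.23 with ΔTFR4 (edgeR, adjusted p = 0.0048), 0.74 ± 0.23 with FL (adjusted p = 0.0887) and 0.67 ± 0.23 with ΔTFR5 (adjusted p = 0.086). Among the hosts this was the highest fold change of the ΔTFR4 comparison, and both it and that of ZFAS1 passed in all 13 alternative fits.

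SNHG7, which overlaps the gene DIPK1B, read 39.1, 39.0 and 40.6 CPM with empty vector, 36.4, 66.1 and 42.2 CPM with FL, 69.1, 62.0 and 66.2 CPM with ΔTFR4 and 55.6, 64.6 and 43.8 CPM with ΔTFR5. FL replicate 1 lay below empty vector and FL replicate 2 in the ΔTFR4 range. The log2 fold change of ΔTFR4 against empty vector was 0.73 ± 0.20 (edgeR, adjusted p = 0.0175). It missed the threshold without any one of the 3 empty vector libraries (adjusted p = 0.0534 to 0.0636), without ΔTFR4 replicate 1 (adjusted p = 0.0586) or without ΔTFR4 replicate 3 (adjusted p = 0.0539).

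SNHG15, the host of SNORA9 and a short-lived transcript, and SNHG1 had their highest libraries in FL. SNHG15 read 15.5, 18.5 and 16.2 CPM with empty vector, 47.8, 50.7 and 19.1 CPM with FL, 35.0, 34.8 and 30.1 CPM with ΔTFR4 and 17.5, 22.8 and 13.7 CPM with ΔTFR5. SNHG1 read 82.7, 97.0 and 90.7 CPM with empty vector, 241, 190 and 94.6 CPM with FL, 121, 119 and 114 CPM with ΔTFR4 and 86.6, 94.9 and 71.3 CPM with ΔTFR5. In both genes FL replicates 1 and 2 lay above every other library of the batch, FL replicate 3 lay at or just above the empty vector range, and ΔTFR5 overlapped empty vector. The ΔTFR4 difference from empty vector was 0.99 ± 0.29 for SNHG15 (edgeR, adjusted p = 0.0261) and 0.39 ± 0.24 for SNHG1 (adjusted p = 0.269). The SNHG1 difference passed in 1 of 13 alternative fits. In the main fit the 4 groups share 1 estimate of the spread, FL included. Pairs of FL replicates differed more (chi-square per gene 67.6 to 221) than those of empty vector (8.44 to 28.7) and ΔTFR4 (16.0 to 35.3). That of SNHG15 missed without any one of the empty vector libraries or ΔTFR4 replicate 1 or 2 (adjusted p = 0.0575 to 0.0898) and with no filter on low counts (adjusted p = 0.0811).

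SNHG12 moved the other way. This host of SNORA44, SNORA61, SNORA16A and SNORD99 overlaps TRNAU1AP by 7 bases. It read 29.6, 39.0 and 34.2 CPM with empty vector, 17.6, 30.8 and 34.1 CPM with FL, 19.0, 19.6 and 21.1 CPM with ΔTFR4 and 16.9, 20.2 and 16.9 CPM with ΔTFR5. Both deletions lay wholly below empty vector, and FL replicate 1 was at their level. The log2 fold change against empty vector was -0.78 ± 0.21 with ΔTFR4 (edgeR, adjusted p = 0.0164) and -0.93 ± 0.21 with ΔTFR5 (edgeR, adjusted p = 0.0163), and FL gave -0.32 ± 0.21 (adjusted p = 0.334). Leaving out empty vector replicate 2 or ΔTFR4 replicate 1 or 2 took the ΔTFR4 value past the threshold (adjusted p = 0.06 to 0.0727), and leaving out empty vector replicate 2 or 3 or ΔTFR5 replicate 1 or 2 did so for ΔTFR5 (adjusted p = 0.0556 to 0.0796).

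The last 3 hosts did not pass in any comparison of batch 2 in the main edgeR fit. SNHG6 passed in 1 of 13 alternative fits of ΔTFR4 against empty vector. The same held for SNHG6 in ΔTFR5 against empty vector and in ΔTFR4 against FL. SNHG5 passed in 1 of 13 alternative fits of ΔTFR4 against empty vector. As for SNHG1, the main fit of these hosts used a spread shared with the FL libraries. SNHG6, host of SNORD87, read 24.7, 27.3 and 32.3 CPM with empty vector, 17.4, 38.6 and 28.8 CPM with FL, 43.5, 38.3 and 43.2 CPM with ΔTFR4 and 35.2, 37.6 and 38.9 CPM with ΔTFR5. Its deletion libraries lay above empty vector, and ΔTFR4 gave 0.57 ± 0.22 (edgeR, adjusted p = 0.0756). SNHG5, host of SNORD50A and SNORD50B, ran from 43.9 to 47.0 CPM with empty vector, from 29.8 to 59.5 CPM with FL, from 51.3 to 54.3 CPM with ΔTFR4 and from 46.1 to 50.3 CPM with ΔTFR5. SNHG16, the host with the highest level, ran from 450 to 467 CPM with empty vector and from 446 to 567 CPM in the other libraries, and its fold change of ΔTFR4 against empty vector was 0.04 ± 0.11.

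The ΔTFR5 comparison with empty vector had 2 of 10 hosts past the threshold, GAS5 higher and SNHG12 lower, where 10.2% of all genes passed. Libraries did not overlap for 5 hosts that were higher and 1 that was lower, against 22.8% and 21.8% of all genes. ΔTFR5 set against ΔTFR4 gave log2 fold changes of -0.89 to -0.00 for the 10 hosts, all below 0, and a median of -0.29. None passed (edgeR, 1 of 10 at an unadjusted p under 0.05; DESeq2 also called none), where 0.453% of all genes did, and 6 hosts had ΔTFR5 libraries wholly below the ΔTFR4 libraries, against 14.2% of all genes. The lowest of these differences was that of SNHG15, -0.89 ± 0.29 (edgeR, adjusted p = 0.343). Both deletions were set against the same empty vector libraries, so their agreement in sign is not independent.

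FL against empty vector in batch 2 called no host with edgeR, where 1.16% of all genes passed, although 5 of 10 had an unadjusted p under 0.05 and DESeq2 called 4, all higher. FL libraries lay wholly above empty vector for 4 hosts, GAS5, ZFAS1, SNHG8 and SNHG15, as for 11.8% of all genes. The 4 that DESeq2 called were SNHG15, with a log2 fold change of 1.23 ± 0.29 (edgeR, adjusted p = 0.0592), SNHG1 with 0.96 ± 0.25 (edgeR, adjusted p = 0.0648), ZFAS1 and SNHG8. The DESeq2 adjusted p values were 0.00245, 0.00651, 0.00808 and 0.0301 in that order. SNHG15 also passed with the replicate block (adjusted p = 0.0392) and with the GC trend removed (adjusted p = 0.0459).

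These values depended on single FL libraries. Without FL replicate 3, the FL library with the lowest SLNCR level, edgeR called 5 hosts higher than empty vector: SNHG1 at 1.25 (adjusted p = 6.19e-05), SNHG15 at 1.55 (adjusted p = 7.52e-05), ZFAS1 at 1.13 (adjusted p = 0.00128), SNHG8 at 0.96 (adjusted p = 0.00263) and GAS5 at 0.65 (adjusted p = 0.0155). The same fit called 5966 genes in all, against 217 with the library, so the hosts' count rose together with the background. Leaving out FL replicate 1 or 2 or any empty vector library called 0 hosts, as did the fit of all libraries. Without FL replicate 2 the log2 fold change was 0.50 for ZFAS1, 0.40 for SNHG8 and 0.20 for GAS5, and was 0.88 for SNHG1 and 0.99 for SNHG15. Without FL replicate 1 it was 0.66 for SNHG1 and 1.06 for SNHG15.

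ΔTFR4 against FL and ΔTFR5 against FL also called no host with edgeR, where 4.36% and 1.38% of all genes passed. At an unadjusted p under 0.05 there were 5 and 3 hosts, and DESeq2 called 0 and 2. The 2 were SNHG1, with a ΔTFR5 minus FL value of -1.06 ± 0.25 (edgeR, adjusted p = 0.055; DESeq2, adjusted p = 0.00199), and SNHG15, with -1.12 ± 0.29 (edgeR, adjusted p = 0.0696; DESeq2, adjusted p = 0.00612). Without FL replicate 3, edgeR gave -1.36 for SNHG1 (adjusted p = 0.000168) and -1.45 for SNHG15 (adjusted p = 0.000375) in ΔTFR5, and -0.87 for SNHG1 (adjusted p = 0.00433) in ΔTFR4. Without FL replicate 1, SNHG12 was lower than FL in ΔTFR4 (-0.71, adjusted p = 0.0062) and in ΔTFR5 (-0.85, adjusted p = 0.00579). Without FL replicate 2, GAS5 (0.76, adjusted p = 0.0129), SNHG7 (0.75, adjusted p = 0.0194), SNHG6 (0.86, adjusted p = 0.0281) and SNHG8 (0.73, adjusted p = 0.0429) were higher in ΔTFR4 than in FL. Which hosts differed between a deletion and full-length SLNCR thus changed with the FL library left out. All genes called moved with them: ΔTFR4 against FL called 819 genes with all libraries and 1708, 1576 and 2220 without FL replicate 1, 2 or 3, and ΔTFR5 against FL called 259 with all and 596, 182 and 3480 without them.

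**Figure D2:**
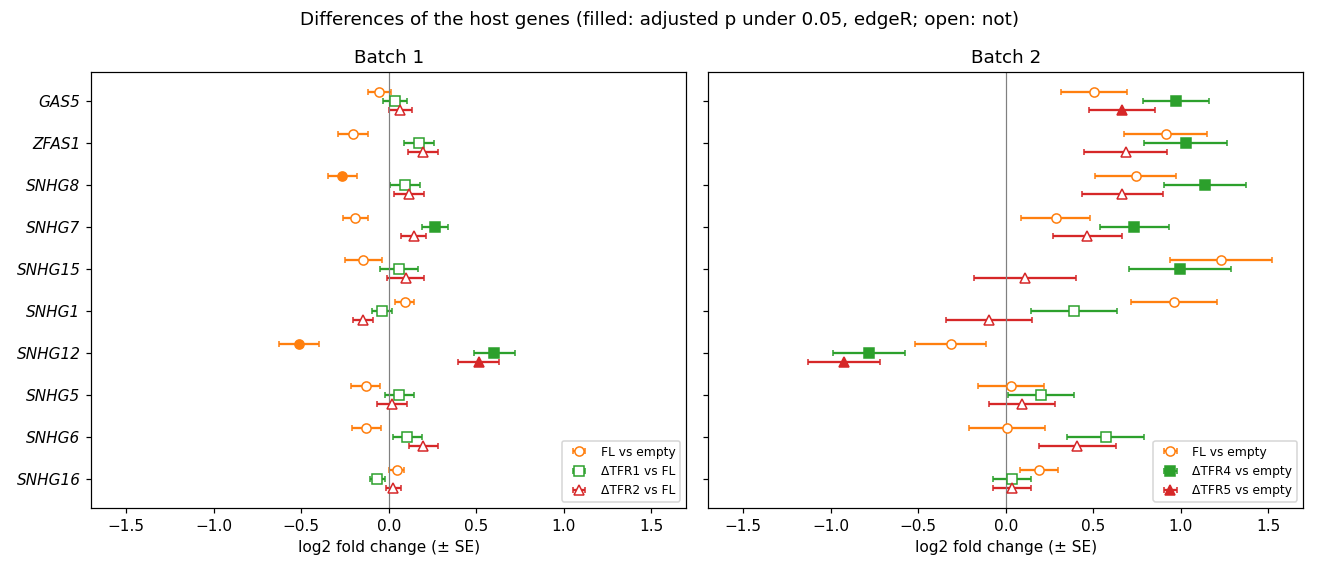
Log2 fold change ± SE of each host gene (x axis) in 3 comparisons of batch 1 (left) and 3 of batch 2 (right), filled where the edgeR adjusted p was under 0.05. SNHG12 was the host called most often, lower with FL in batch 1 and lower with both deletions in batch 2, while GAS5, ZFAS1, SNHG8, SNHG7 and SNHG15 were called higher with ΔTFR4.

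In batch 1, FL libraries held less SNHG12 and SNHG8 than empty vector libraries, and both deletions held more SNHG12 than FL. These 2 of 10 hosts passed in FL against empty vector, where 22.7% of all 14310 genes tested did, so the share of hosts called was close to that of all genes. FL libraries lay wholly below empty vector for 4 hosts and wholly above for 1, SNHG16, as did 18.7% and 17.9% of all genes. The hosts' median log2 fold change was -0.14, against -0.02 over all genes.

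SNHG12 read 25.8, 24.4 and 22.6 CPM with empty vector, 18.6, 19.1 and 13.0 CPM with FL, 25.4, 27.9 and 24.2 CPM with ΔTFR1 and 21.8, 27.2 and 23.7 CPM with ΔTFR2. All 3 FL libraries lay below the 9 others, and FL replicate 3 was the lowest. The log2 fold change of FL against empty vector was -0.51 ± 0.11 (edgeR, adjusted p = 0.00257). It passed in all 13 alternative fits, from -0.60 to -0.36, the latter without FL replicate 3, and was -0.48 with the GC trend removed (adjusted p = 0.0183). SNHG12 was higher than FL by 0.60 ± 0.12 with ΔTFR1 (edgeR, adjusted p = 0.00533) and by 0.51 ± 0.12 with ΔTFR2 (edgeR, adjusted p = 0.011). The ΔTFR1 call was lost without ΔTFR1 replicate 1 (0.61, adjusted p = 0.0504). Against empty vector the deletions gave 0.09 ± 0.11 and -0.00 ± 0.11. The ΔTFR2 call was lost without FL replicate 3 (0.36, adjusted p = 0.068), without ΔTFR2 replicate 2 (0.41, adjusted p = 0.0966) and with the GC trend removed, where the value was about as large (0.48, adjusted p = 0.062).

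**Figure D3:**
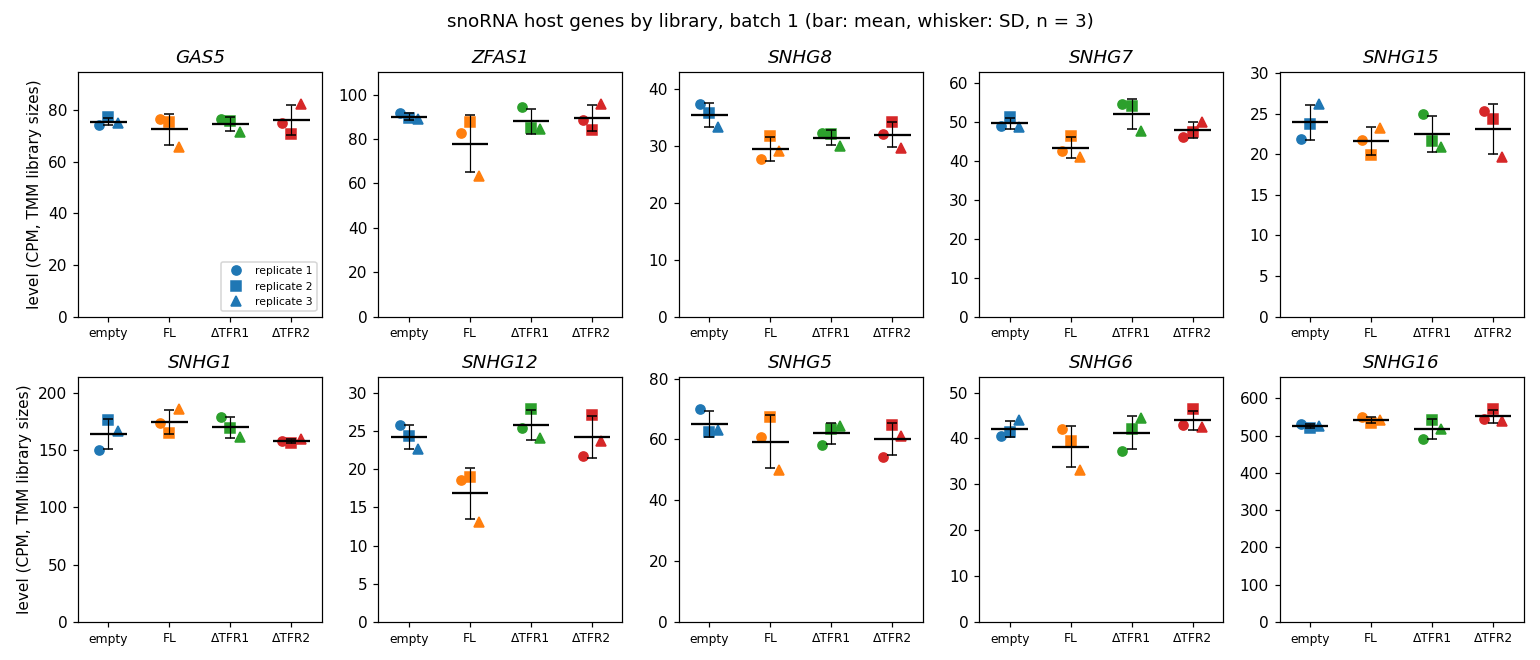
Levels of the 10 host genes in the 12 libraries of batch 1, in CPM on TMM-scaled library sizes, by group, with points for libraries, bars for means and whiskers for SDs (n = 3). The 3 FL libraries of SNHG12, from 13.0 to 19.1 CPM, sit below all others, and FL replicate 3 (triangle) is also the lowest library of ZFAS1.

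SNHG8 read 37.4, 35.9 and 33.3 CPM with empty vector, 27.6, 31.8 and 29.1 CPM with FL, 32.3, 32.2 and 29.9 CPM with ΔTFR1 and 32.1, 34.2 and 29.7 CPM with ΔTFR2. FL lay below empty vector without overlap. The means of the deletions lay between, but both overlapped FL, and ΔTFR2 also overlapped empty vector. Against FL, ΔTFR1 gave 0.09 ± 0.09 (edgeR, adjusted p = 0.518) and ΔTFR2 0.12 ± 0.08 (edgeR, adjusted p = 0.398). The FL difference from empty vector was -0.27 ± 0.08 (edgeR, adjusted p = 0.0199). It lost its call without empty vector replicate 1 or 2 or FL replicate 1 or 3 (adjusted p = 0.0622 to 0.136) and kept it with the GC trend removed (-0.40, adjusted p = 0.0114).

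SNHG7 read 49.1, 51.3 and 48.7 CPM with empty vector, 42.7, 46.5 and 41.2 CPM with FL, 54.8, 54.1 and 47.7 CPM with ΔTFR1 and 46.2, 47.6 and 50.2 CPM with ΔTFR2. FL libraries lay below those of empty vector and ΔTFR1. It was higher with ΔTFR1 than with FL by 0.26 ± 0.07 (edgeR, adjusted p = 0.0236), and with the GC trend removed the value was 0.10 (adjusted p = 0.533). At 59.9% GC, SNHG7 is the most GC-rich of the 10 hosts by the median of its annotated transcripts. Its call was also lost without FL replicate 1 or 3 or ΔTFR1 replicate 1 or 2 (adjusted p = 0.083 to 0.135) and with FL and ΔTFR1 fitted alone (adjusted p = 0.0721).

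ZFAS1 read 91.8, 89.6 and 89.0 CPM with empty vector, 82.7, 87.6 and 63.3 CPM with FL, 94.5, 85.1 and 84.5 CPM with ΔTFR1 and 88.6, 84.2 and 95.9 CPM with ΔTFR2. FL replicate 3 was far below the rest. The FL difference from empty vector, -0.21 ± 0.08, missed the threshold (edgeR, adjusted p = 0.0825) and was -0.07 without FL replicate 3 (adjusted p = 0.514). The other 6 hosts passed in no comparison of batch 1 in the main edgeR fit. Of them, SNHG5 passed in 1 of 13 alternative fits in FL against empty vector, and SNHG1 in 2 of 13 in ΔTFR2 against FL. SNHG16 stayed between 491 and 571 CPM in the 12 libraries, GAS5 between 65.8 and 82.5 CPM and SNHG1 between 150 and 186 CPM. Against empty vector, FL gave 0.04 ± 0.04 for SNHG16, -0.05 ± 0.07 for GAS5 and 0.09 ± 0.06 for SNHG1, and -0.13 ± 0.08 for SNHG5, -0.13 ± 0.08 for SNHG6 and -0.15 ± 0.10 for SNHG15.

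ΔTFR1 against FL called 2 of 10 hosts, SNHG12 and SNHG7, where 10.1% of all genes passed, and ΔTFR2 against FL called 1, SNHG12, where 10% did. No host was called in ΔTFR1 against empty vector, ΔTFR2 against empty vector or ΔTFR2 against ΔTFR1 (edgeR, 1, 0 and 1 hosts at an unadjusted p under 0.05; DESeq2 also called none). Those comparisons called 0.00699%, 0.014% and 0% of all genes.

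The snoRNAs that the hosts carry were read sparsely. The RNA came from RNeasy silica columns, which recover small RNAs poorly. In batch 1, 17 snoRNA rows passed the filter, and none was called in any of the 6 comparisons, with a median log2 fold change of -0.06 in FL against empty vector. The 10 snoRNAs of GAS5 summed to 3172 counts over the 12 libraries, against 8496 for GAS5 itself, and SNORD80 held 1573 of them. SNORA16A, in SNHG12, summed to 1402 counts against 2580 for its host, while SNORA61 of the same host read 0 in every library. In batch 2, 5 rows passed, 2 of them for SNORA17B, and again none was called. In ΔTFR4 against empty vector their median was 0.65. The values ran from 0.0 for 1 SNORA17B row to 5.92 ± 2.12 for SNORA44, which stood at 0 in 5 of 12 libraries. There 2 of the GAS5 snoRNAs were listed and both stood at 0 in all 12 libraries, while SNORA17B of SNHG7 summed to 3210 estimated counts. A snoRNA row can hold reads of its host's unspliced RNA, and the mature snoRNA was not measured apart from it.

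Related genes were counted by list. Of 22 other noncoding hosts of snoRNAs, 18 were tested in batch 2, and in ΔTFR4 against empty vector 4 rose and 6 fell, with a median log2 fold change of -0.45, where 12.5% of all genes rose and 11.4% fell. Those that rose were SNHG32 (1.79 ± 0.29; edgeR, adjusted p = 0.00181), EPB41L4A-AS1 (1.28 ± 0.28; adjusted p = 0.00667), SNHG11 (1.06 ± 0.22; adjusted p = 0.00536) and SNHG29. SNHG30 (-1.40 ± 0.22; adjusted p = 0.00161), SNHG9 (-1.39 ± 0.27; adjusted p = 0.00386) and DANCR (-1.17 ± 0.21; adjusted p = 0.00241) fell furthest. Noncoding hosts therefore moved in both directions, as SNHG12 did among the 10. In ΔTFR5 against empty vector 2 of the 18 rose and 3 fell (5.48% and 4.68% of all genes). In batch 1 SNHG17 alone of 14 tested was called. It was lower in FL than with empty vector (-0.26 ± 0.07, edgeR, adjusted p = 0.00692), where 11.3% of all genes were lower. It was higher with ΔTFR1 and with ΔTFR2 than with FL, where 4.4% and 4.86% of all genes were higher.

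Protein-coding hosts of snoRNAs are ribosomal, translation and chaperone genes in large part. In ΔTFR4 against empty vector of batch 2, 3 of 42 were higher and 4 lower, where 12.5% of all genes were higher and 11.4% lower. RPL12 (0.65 ± 0.12; edgeR, adjusted p = 0.00339), TNPO2 (0.68 ± 0.17; adjusted p = 0.0127) and RPL4 (0.39 ± 0.13; adjusted p = 0.0463) were higher. HSPA8, a chaperone of the heat shock family, was lower by the widest margin (-2.30 ± 0.48; adjusted p = 0.00593), with TCP1 (-0.78 ± 0.15; adjusted p = 0.00358) and NCL (-0.62 ± 0.15; adjusted p = 0.0108). Of 17 factors of nonsense-mediated decay, 1 was higher, SMG9 (0.55 ± 0.18; adjusted p = 0.0359), and of 17 proteins that build snoRNA particles none was higher and 3, SHQ1, NOLC1 and NOP56, were lower. In FL against empty vector of batch 1, where 11.4% of all genes were higher and 11.3% lower, 3 of 41 protein-coding hosts were higher and 9 lower, UPF1, EIF4A3 and UPF3A were lower among decay factors and XRN1 higher, and 1 snoRNA-particle protein was higher and 4 lower.

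Stress-induced transcripts known as targets of nonsense-mediated decay rose beside the hosts in batch 2. In ΔTFR4 against empty vector 8 of 11 were higher and none lower, with a median log2 fold change of 1.26, where 12.5% of all genes were higher. DDIT3, a transcription factor of the integrated stress response, read 6.97, 6.35 and 5.94 CPM with empty vector, 33.9, 49.04 and 10.7 CPM with FL, 64.7, 66.7 and 63.0 CPM with ΔTFR4 and 39.7, 56.8 and 19.2 CPM with ΔTFR5. In FL and ΔTFR5 its highest library was replicate 2 and its lowest replicate 3, as for GAS5, ZFAS1, SNHG8 and SNHG15. The other hosts did not share this order in FL. There SNHG1 and SNHG16 were highest in replicate 1, and SNHG5, SNHG6, SNHG7 and SNHG12 were lowest in replicate 1. In ΔTFR5, SNHG1, SNHG5 and SNHG7 shared the order of DDIT3 too, and SNHG6, SNHG12 and SNHG16 did not. SLNCR also had this order in ΔTFR5 (321, 376 and 192 CPM in replicates 1, 2 and 3). In FL it did not (728, 658 and 334 CPM). The same held for each library's rho with GC content (0.158, 0.272 and -0.135 in ΔTFR5, -0.522, 0.015 and 0.127 in FL). Whether SLNCR level or a library-wide difference gave the order was not tested. DDIT3 rose by 3.33 ± 0.48 (edgeR, adjusted p = 0.00101), SESN2 by 2.14 ± 0.36 (adjusted p = 0.00192) and TRIB3 by 1.92 ± 0.33 (adjusted p = 0.00209) with ΔTFR4. ATF4, the factor upstream of these genes, which is controlled in its translation, gave 0.17 ± 0.12 and was not called. In FL and in ΔTFR5 against empty vector 5 of 11 were higher and none lower, where 1.03% and 5.48% of all genes were higher. In batch 1, FL against empty vector had none of 11 higher and 1 lower, TRIB3 (-0.24 ± 0.06, edgeR, adjusted p = 0.0083). There 11.4% of all genes were higher and 11.3% lower. The part of a stress response in the hosts' values was not tested.

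**Figure D4:**
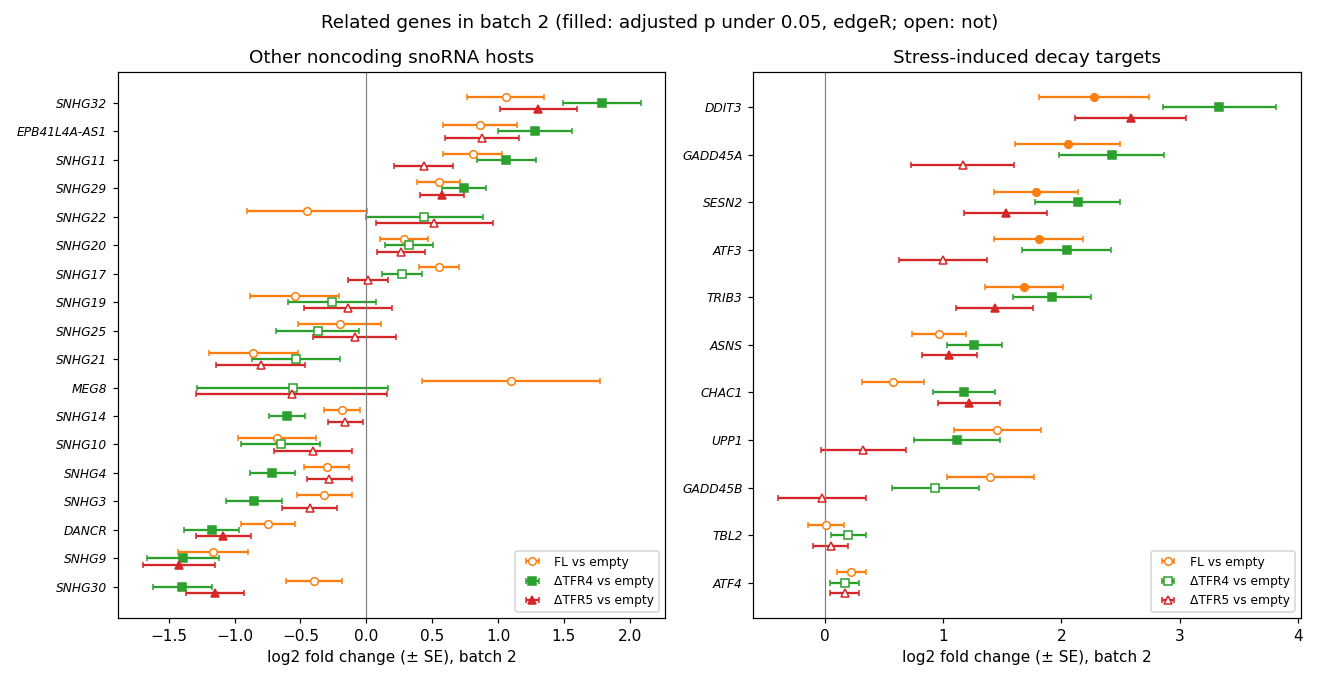
Log2 fold change ± SE (x axis) against empty vector in batch 2 for 18 other noncoding snoRNA hosts (left) and 11 stress-induced decay targets (right), filled where the edgeR adjusted p was under 0.05. The other noncoding hosts lie on both sides of 0, from SNHG32 at 1.79 to SNHG30 at -1.40 with ΔTFR4, whereas DDIT3 reaches 3.33.

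Genes beside the hosts were also measured, because the deposited counts are not stated to use strand, so that reads from overlapping or facing genes cannot be told apart. Of 13 nearest RefSeq genes tested in batch 2, 4 were higher and 2 lower in ΔTFR4 against empty vector, where 12.5% and 11.4% of all genes were. In ΔTFR5 against empty vector 2 were higher and 1 lower (5.48% and 4.68% of all genes). The neighbours named next were called in ΔTFR4 against empty vector. SLC3A2, an amino acid transporter subunit whose gene lies 224 bases from SNHG1, rose by 0.76 ± 0.19 (edgeR, adjusted p = 0.0111), and SNHG1 itself was not called there. DIPK1B, which overlaps SNHG7 by 148 bases, rose by 0.65 ± 0.17 (adjusted p = 0.0158), PRSS12, 215 bases from SNHG8, by 0.72 ± 0.18 (adjusted p = 0.0112) and ST6GALNAC2, 29 bases from SNHG16, by 1.76 ± 0.48 (adjusted p = 0.0187). SYNCRIP near SNHG5 gave -0.78 ± 0.15 (adjusted p = 0.00318), while SNHG5 itself was not called there.

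The hosts did not vary as one group. Their levels were turned to z-scores across the 12 libraries of a batch and averaged. Over the 12 libraries of batch 2, ZFAS1 (Pearson's r 0.95), SNHG8 (0.93), GAS5 (0.89) and SNHG7 (0.86) lay closest to that mean, which they are part of, while SNHG16 (0.25) and SNHG12 (-0.25) did not follow it. Among 10349 other genes, the 5 most like the mean were TNPO2 (0.97), SLC1A5 (0.97), MARK3 (0.97), SLC3A2 (0.96) and IER2 (0.96). In batch 1 SNHG12 (0.92) and ZFAS1 (0.84) lay closest and SNHG1 (-0.47) went against the mean, and the 5 most like genes were SPHK2, HIST1H2AK, GNA11, PGD and DDX39A (0.96 each). These values are a description over libraries that share 4 groups, and in both batches some of the libraries differed along GC content.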

How the data were processed

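RNA sequencing libraries of 24 A375 samples were read from 2 tables of 12. The deposited batch 1 table gives raw counts by symbol. The batch 2 table holds estimated counts that the authors made with salmon, per the deposited table's name, and these were rounded to whole numbers. Per the submitters' processing notes, STAR 2.7.3a, Subread 1.6.2 (featureCounts), DESeq2 1.24.0, cutadapt 2.5 and FastQC 0.11.5 were used, and the builds GRCh38 and GRCm38 are listed without roles. The annotation, salmon's version and whether counting used strand are not given here. Each batch was fitted apart in edgeR 4.0.16 (R 4.3.3) with all 12 libraries: filterByExpr (minimum count 10, minimum total 15), TMM library sizes and the robust quasi-likelihood test. P-values were Benjamini-Hochberg adjusted over 14310 and 18763 genes and called under 0.05. Standard errors come from the log2 fold change and the F statistic (log2 fold change over root F). A level (CPM) is the count per 1000000 of TMM-scaled library size, and per kb uses the median GENCODE transcript length. DESeq2 1.42.0 served as an alternative.

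On simulated counts for FL against empty vector, 88.1% of 2-fold changes were recovered in batch 1 (14310 genes) and 48.4% in batch 2 (18763 genes). The members and lists were chosen with earlier results of these data known. The text names all 10 hosts, up to 3 called genes per list and direction with the lowest adjusted p, the 5 genes most like the hosts' mean z-score (mean log2 CPM of at least 3, pseudocount 0.05 CPM) and called neighbours in ΔTFR4 against empty vector. An item is not reported here. SNHG29 was named as the remaining 1 of 4 after its values were seen. No pair of replicates agreed within sampling noise. The design text says that 6 samples were re-analysed from an earlier series, without saying which.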

Additional observations from a re-analysis of the deposited data

Results flagged for a closer look

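ZFAS1 and SNHG8 went opposite ways in the 2 batches under the same contrast, FL against empty vector. For ZFAS1 every FL library lay below every empty vector library in batch 1 (log2 fold change -0.21) and above in batch 2 (0.91). For SNHG8 the values were -0.27 in batch 1 and 0.74 in batch 2, again without overlap in either batch. The ZFAS1 value was -0.07 in batch 1 without FL replicate 3 and 0.50 in batch 2 without FL replicate 2, and the batch 2 value of SNHG8 was 0.40 without FL replicate 2. The difference between the batches was not tested, since the tables were counted and normalised apart. Of these 4 values, that of SNHG8 in batch 1 alone passed edgeR's threshold (adjusted p = 0.0199).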

How the results depend on the processing

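Of 1560 values of single hosts under an alternative fit, 1470 stayed on their side of the threshold, 49 gained a call and 41 lost one. The sign changed in 84, none of which was called either way. In batch 1, ΔTFR1 against FL called 1 host with the 2 groups fitted alone (2.18% of all genes called), with the GC trend removed (0.604%), and with GC and length trends removed (0.537%). ΔTFR2 against FL called 3 without a low count filter (8.43%) and 0 with either trend correction (0.11% and 0.103%). In batch 2, FL against empty vector called 4 with DESeq2 (13.2%), 1 with the replicate block (2.13%) and 1 with either trend correction (4.38% and 3.82%). ΔTFR5 against FL called 2 with DESeq2 (8.61%), 1 with no filter (1.22%) and 2 with either trend correction (4.64% and 4.33%). ΔTFR5 against empty vector called 4 with DESeq2 (15.8%), 6 with the 2 groups alone (32%) and 1 with either trend correction (17.1% and 17%), and ΔTFR5 against ΔTFR4 called 2 with the 2 groups alone (6.33%). The cause was not tested. With 1 library left out, counts ran from 1 to 5 (FL), 0 to 3 (ΔTFR1 against FL) and 0 to 3 (ΔTFR2 against FL) in batch 1, and from 0 to 5 (FL), 3 to 5 (ΔTFR4 against empty vector), 0 to 2 (ΔTFR5 against empty vector), 0 to 4 (ΔTFR4 against FL) and 0 to 2 (ΔTFR5 against FL) in batch 2. In the same order all genes called ran from 1182 to 4064, 22 to 2752 and 0 to 2710, and from 6 to 5966, 2309 to 2914, 440 to 1746, 79 to 2220 and 19 to 3480. In batch 1, 5 hosts were called lower with FL without FL replicate 2, and 1 without FL replicate 1 or 3 or empty vector replicate 1 or 2. Whether replicate numbers pair the samples cannot be settled with 3 libraries per group. Same-numbered libraries deviated with a median correlation of 0.02 in batch 1 and -0.01 in batch 2, and at most 0.18 and 0.197. Other pairs had a median of -0.012 in both batches. In batch 1, 6 of 12 libraries correlated best with their own number, and in batch 2, 4 of 12. The block changed no other count of called hosts by over 1.5 times. Fewer fold changes can be seen in batch 2, where the spread was wider.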
